A study of Mus musculus with 12 samples.

Results

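The genes of synaptic vesicles, of the fusion machinery that empties them and of the adhesion proteins that hold synapses together were followed in bulk RNA-seq of the mouse spinal cord. Members were chosen by symbol: the synaptotagmins (Syt), synapsins (Syn1 to Syn3), SV2 proteins (Sv2a to Sv2c), vesicle-associated membrane proteins (Vamp), syntaxins (Stx), complexins (Cplx), neurexins (Nrxn), neuroligins (Nlgn1 to Nlgn3) and Rab3 GTPases (Rab3a to Rab3d), with Snap25 and Syp. This gave 61 of the 37991 genes in the count table, and 56 of them had enough counts to be tested. All 12 mice were adults over 8 weeks old of the Glast-CreERT2, R26R-YFP and Rasless alleles, bred on C57bl/6J. In this line the Glast promoter drives a tamoxifen-dependent Cre recombinase, and the line is used to act on type A pericytes. The labels gave 3 groups of 4 mice. Uninjured mice received vehicle, vehicle lesions came from mice given vehicle before a dorsal hemisection at high thoracic level, and tamoxifen lesions from mice given 2 mg of tamoxifen daily for 5 days and left 7 days to clear it before the same operation. Lesions were taken 14 days after injury, and the series describes them as densely scarred by pericyte-derived cells after vehicle and less so after tamoxifen. Each library is 1 mouse, so the p-values measure the spread between these mice.

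A nerve terminal stores transmitter in vesicles coated with synaptophysin, SV2 and synapsins, and a Rab3 GTPase brings them to the release site. Fusion is driven by a SNARE complex in which a vesicle VAMP zips together with syntaxin and SNAP25 of the plasma membrane, while complexin clamps the complex and a synaptotagmin triggers it when calcium enters. Neurexins of the presynaptic membrane bind neuroligins of the postsynaptic membrane across the cleft. The VAMP and syntaxin families also hold members that serve the Golgi, endosomes, lysosomes and granules of every cell type, so the symbols chosen here cover both synaptic and general membrane traffic. Members were therefore read in 6 groups by role: 11 vesicle membrane and associated proteins, 9 neuronal SNAREs and complexins, 17 synaptotagmins, 6 neurexins and neuroligins, 5 other VAMPs and 13 other syntaxins.

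The DNA just before the transcription start was read for the members with the 2 largest falls in vehicle lesions (Syt10 and Sv2c). It was also read for the 3 largest rises there (Stx11, Rab3d and Vamp8) and for Syn1, which held a match to the RE1 consensus. RE1 is the site through which the REST repressor keeps neuronal genes off in other cells. The 250 bases before the start come from RefSeq on GRCm38.p6, printed 5′ to 3′ on the gene's strand. Of 61 members 45 had an entry there. Capitals mark matches to 4 motifs searched on both strands, chosen with the results known: the RE1 consensus with at most 3 mismatches, the cyclic AMP response element (TGACGTCA), the GC box, read as GGGCGG and, on the other strand, as CCGCCC, and the TATA box (TATAAA). Matches to different motifs did not overlap.
Syn1 (chrX:20920919-20921168, minus strand): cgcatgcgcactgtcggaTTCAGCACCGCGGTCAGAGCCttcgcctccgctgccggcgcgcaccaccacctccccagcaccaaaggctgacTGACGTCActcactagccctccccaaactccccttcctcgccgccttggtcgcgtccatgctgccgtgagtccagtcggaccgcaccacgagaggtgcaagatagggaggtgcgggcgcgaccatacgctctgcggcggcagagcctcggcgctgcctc
Sv2c (chr13:96132578-96132827, minus strand): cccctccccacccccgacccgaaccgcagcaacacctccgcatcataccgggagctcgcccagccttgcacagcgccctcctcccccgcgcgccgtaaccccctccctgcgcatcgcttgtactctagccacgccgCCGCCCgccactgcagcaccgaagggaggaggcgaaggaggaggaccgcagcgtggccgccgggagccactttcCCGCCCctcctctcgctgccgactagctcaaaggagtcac
Syt10 (chr15:89841861-89842110, minus strand): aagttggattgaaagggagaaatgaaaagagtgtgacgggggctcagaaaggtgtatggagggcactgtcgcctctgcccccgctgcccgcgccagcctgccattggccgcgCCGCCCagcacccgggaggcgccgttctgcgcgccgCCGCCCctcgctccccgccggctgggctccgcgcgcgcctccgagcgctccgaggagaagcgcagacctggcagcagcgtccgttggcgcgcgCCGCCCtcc
Stx11 (chr10:12964260-12964509, minus strand): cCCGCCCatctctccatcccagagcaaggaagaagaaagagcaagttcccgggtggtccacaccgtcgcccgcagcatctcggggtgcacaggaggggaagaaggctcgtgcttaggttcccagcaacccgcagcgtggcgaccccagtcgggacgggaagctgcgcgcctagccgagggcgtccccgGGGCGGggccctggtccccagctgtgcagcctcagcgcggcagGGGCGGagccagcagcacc
Rab3d (chr9:21918184-21918433, minus strand): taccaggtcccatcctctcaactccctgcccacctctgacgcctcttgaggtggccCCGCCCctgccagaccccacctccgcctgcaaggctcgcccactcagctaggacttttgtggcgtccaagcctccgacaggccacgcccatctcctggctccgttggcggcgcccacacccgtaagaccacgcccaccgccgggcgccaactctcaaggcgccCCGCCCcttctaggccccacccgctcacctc
Vamp8 (chr6:72390668-72390917, minus strand): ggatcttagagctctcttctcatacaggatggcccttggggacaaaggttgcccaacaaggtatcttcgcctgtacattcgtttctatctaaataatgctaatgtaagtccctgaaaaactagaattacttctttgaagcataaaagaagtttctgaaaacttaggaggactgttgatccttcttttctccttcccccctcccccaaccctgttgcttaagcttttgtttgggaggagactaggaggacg

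Syn1 carried an RE1 match with 1 mismatch and a cyclic AMP response element, and no other member with an entry carried either. Among tested genes with an entry, 22 of 10763 (0.204%) held the RE1 match and 3.02% the cyclic AMP element. GC boxes stood in the windows of Sv2c, Syt10, Stx11 and Rab3d and in 32 of 42 tested members with an entry (76.2%), beside 62.1% of all tested genes with one. The TATA box was found for 4 of the 42 (9.52%, beside 8.19%). The Vamp8 window matched none of the 4. A match is a run of letters, and binding was not measured.

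Depth and composition of the libraries bear on all comparisons. Library totals ran from 7967970 to 12581324 counts. Sample names in the labels lie between 1 and 20 for 9 libraries but are 106 to 108 for tamoxifen libraries 513, 549 and 564, so for those 3 the series of sample names and tamoxifen cannot be told apart. Tamoxifen library 452 belongs to the first series. By X- and Y-linked transcripts, mice 467, 402, 428 and 457 were male. Skeletal muscle transcripts were high in uninjured libraries 377 and 385 and in vehicle libraries 402, 429 and 457. Neuronal identity of the tissue was plain in every library: the summed level of 20 neuron markers, all detected, ranged from 9873 to 11793 CPM (counts of a gene scaled to a common library size) in uninjured cord, 7293 to 8740.0 in vehicle lesions and 7260.1 to 8709 in tamoxifen lesions. In bulk tissue, fewer cells of a type and less RNA per cell cannot be told apart.

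Before injury the members spanned a wide range of levels per length. On the authors' FPKM scale (fragments per kilobase of transcript, scaled by depth), which allows genes to be compared, Snap25 was the highest member at 939 ± 54.1 FPKM (SD, n = 4) in uninjured cord. Cplx1 followed at 560.2 ± 50.03, Syp at 501 ± 49.96 and Vamp1 at 414 ± 17.7, and Cplx1 and Syp did not differ beyond their spread. Syt11 (285 ± 4.99) and Rab3a (269 ± 18.7) were also within their spread of each other. Below these, Vamp2 stood at 129.9 ± 5.72, Sv2a at 126 ± 2.76 and Syt2 at 108 ± 3.82 FPKM. Among the paralogues best known for fast release, Vamp1 thus lay above Vamp2, and Syt2 above Syt1 (60.8 ± 3.59 FPKM), the order known for spinal cord and brainstem. The lowest tested members were Stx11 at 0.245 ± 0.199 and Syt15 at 0.456 ± 0.0617 FPKM. Cplx3, Cplx4, Stx19 and Syt8 were below the count filter, at no more than 0.643 CPM in any library. Vamp7, a lysosomal VAMP, had 0 counts in all 12 libraries. This allows up to 3 counts per library only if reads of this entry could be counted, which was not tested. The 0 thus does not show that its RNA was absent. A separate entry named Vamp7-ps, looked at after its values were seen, had 60 to 101 counts per library.

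Vehicle lesions were set against uninjured cord first, to read these genes at a densely scarred injury site. Most synaptic members fell. Of the 40 tested members in the first 4 role groups, 35 fell and 2 rose (Rab3d and Syt15), with a median log2 difference of -0.69, while the median over all 16473 genes tested was 0.02. Of the 16 general VAMPs and syntaxins tested, 6 rose, 2 fell and 8 did not pass, with a median of 0.09; the difference between the 2 sets was not tested. Over all 56 tested members 8 rose, 37 fell and 11 did not pass (edgeR quasi-likelihood test, Benjamini-Hochberg threshold 0.05), that is 66.1% lower and 14.3% higher. In the same comparison 50.8% of all genes were called, 24.1% lower and 26.7% higher. The groups did not overlap for 38 members lower and 8 higher, 46 of 56 in all, beside 24.7% lower, 26.3% higher and 51% in all among the genes tested. Levels below are CPM normalised for library composition, in the order uninjured 376, 377, 385 and 467, vehicle 402, 428, 429 and 457, and tamoxifen 452, 513, 549 and 564.

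Proteins of the vesicle membrane fell for 9 of 11 tested members (median log2 -0.74). Syp (ENSMUSG00000031144), the synaptophysin gene, read 504, 468, 439 and 458 CPM in uninjured cord, 284, 317, 239.9 and 279.9 in vehicle lesions and 339, 319, 291 and 402 in tamoxifen lesions. Every lesion library lay below every uninjured one, and Syp fell by 0.74 on the log2 scale after vehicle (SE 0.10, adjusted p = 8.4e-05). An antisense entry, Gm14703, covers 33.8% of the Syp exon bases in the reference annotation and read 0.487 CPM in uninjured cord. Syn1 (ENSMUSG00000037217), a synapsin that tethers vesicles to the actin network, stood at 395, 367, 365 and 358 CPM, then 257, 261, 216 and 256, then 285, 209, 213 and 268. It fell by 0.59 (SE 0.10, adjusted p = 0.0004), with no overlap between uninjured and injured libraries. Each synapsin hosts a Timp gene, an inhibitor of metalloproteinases, on the opposite strand. Timp1 within Syn1 shared no exon bases with it and was 4.78 higher on the log2 scale in vehicle lesions, while Syn1 was lower.

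Within families the falls were uneven. Syn3 was at 29.6, 27.9, 38.3 and 32.9 CPM before injury, at 13.1, 16.8, 13.7 and 15.4 in vehicle lesions and at 18.9, 11.4, 11.2 and 12.03 in tamoxifen lesions. It fell by 1.13 after vehicle (SE 0.16), and its vehicle and tamoxifen libraries overlapped. Sv2c (ENSMUSG00000051111), the SV2 isoform best known from basal ganglia and brainstem, had the second largest fall of all members by 1.23 (SE 0.10, adjusted p = 3.4e-06). Its libraries read 283, 282, 303 and 244 CPM, then 105, 134, 116.7 and 119, then 143, 111, 109 and 116. Sv2a, the broadly expressed isoform and the target of an antiepileptic drug, read 653, 636, 624 and 631, then 467, 508, 412 and 470.0, then 526, 417, 419.6 and 508. For Sv2a the fall was 0.45 (SE 0.09), and its lowest uninjured library stood above its highest lesion library. Rab3a, the main Rab of vesicle docking, read 383, 365, 339 and 344 CPM, then 244, 263, 197 and 243, then 288, 297, 246 and 358. Rab3a fell by 0.60 after vehicle (SE 0.11), without overlap. Rab3c fell by 0.96, Syn2 by 0.81 and Sv2b by 0.76, whereas Rab3b did not pass (log2 -0.23, 95% interval -0.48 to 0.02).

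Rab3d (ENSMUSG00000019066) rose where Rab3a and Rab3c fell. This Rab is known from secretory granules of exocrine and immune cells. Its libraries read 8.15, 10.2, 8.87 and 7.11 CPM in uninjured cord, 22.5, 20.2, 25.2 and 25.2 in vehicle lesions and 13.2, 13.4, 16.6 and 11.8 in tamoxifen lesions. The 3 groups did not overlap. Rab3d rose by 1.44 in counts (SE 0.13, adjusted p = 7e-06), the second largest rise among members. On FPKM values it went from 3.69 ± 2.10 (SD, n = 4) in uninjured cord to 6.86 ± 0.91 in vehicle lesions.

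Core fusion genes fell too: the 6 neuronal SNAREs and complexins described here had differences from -0.87 to -0.37. Snap25 (ENSMUSG00000027273), the plasma membrane SNARE, read 2269, 2121, 2035 and 2060.0 CPM in uninjured cord, 1396, 1487, 1112 and 1291 in vehicle lesions and 1729.9, 1622, 1365 and 2061 in tamoxifen lesions. Its vehicle libraries lay below the other groups except tamoxifen 549, and it fell by 0.68 (SE 0.12, adjusted p = 0.00038). Stx1a, the syntaxin partner of Snap25, read 29.5, 26.8, 25.3 and 33.0, then 11.97, 17.9, 13.04 and 19.5, then 16.9, 13.8, 11.8 and 19.6. It fell by 0.87 (SE 0.18), and every vehicle library lay below every uninjured one. Vamp1 and Vamp2 are the vesicle SNAREs. Vamp1 read 1341, 1366, 1294 and 1251 CPM, then 865, 909, 703 and 834, then 962, 963, 895 and 1029. Vamp2 read 319, 308, 286 and 316, then 249.5, 244, 219 and 239, then 271, 223, 208 and 289. Vamp1 fell by 0.67 (SE 0.08) and Vamp2 by 0.37 (SE 0.10), both with uninjured libraries above every vehicle library.

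Complexins clamp the assembled SNARE complex. Cplx1 read 1410.4, 1396, 1311 and 1182 CPM, then 853, 916, 695 and 793, then 869.7, 989, 914 and 1154. Cplx2 read 385, 355, 356 and 349, then 196, 229, 152 and 216, then 249, 196, 188 and 312. Both lay lower in every lesion library than in any uninjured one, and after vehicle they fell by 0.70 (SE 0.10) and 0.86 (SE 0.15).

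**Figure D1:**
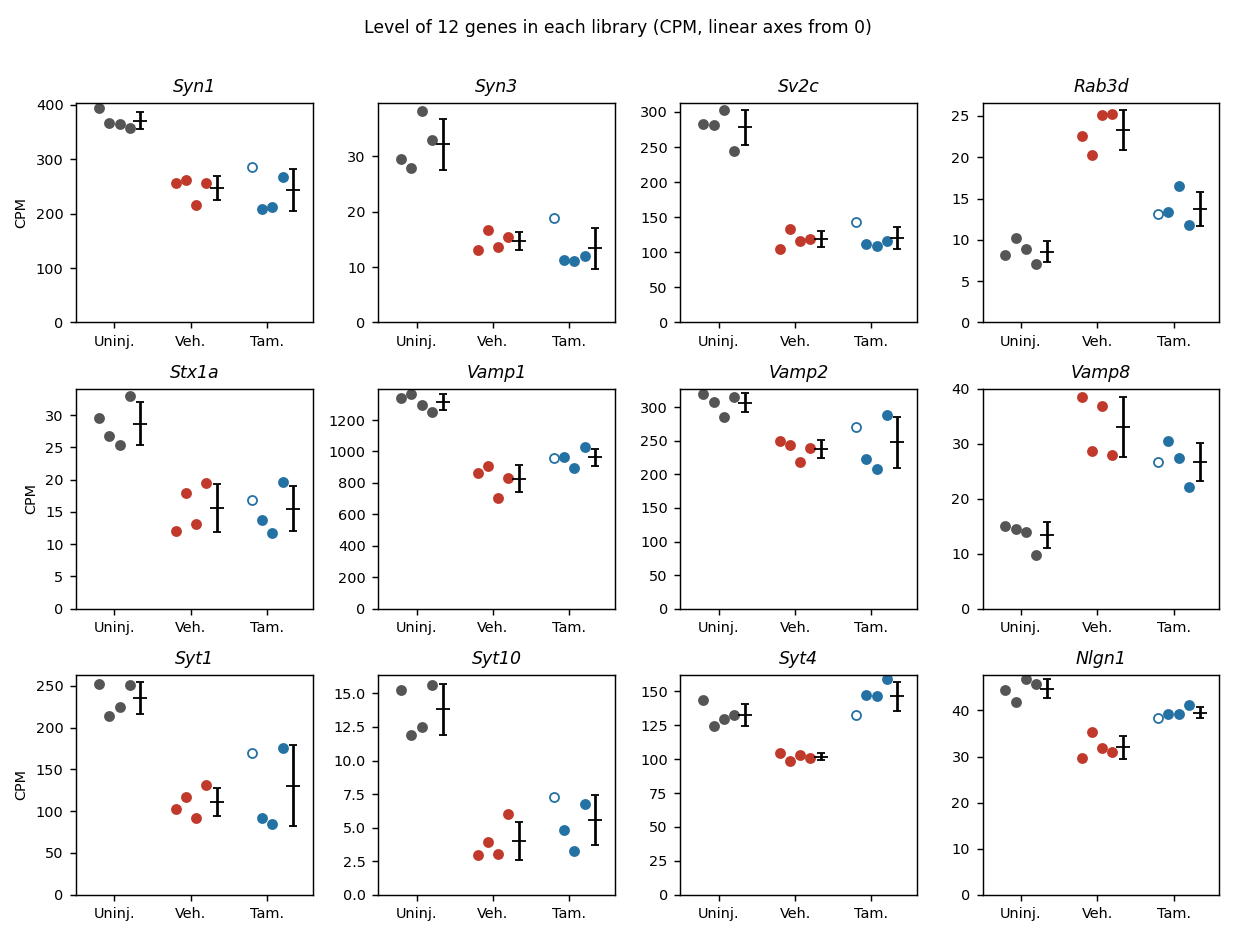
Levels of 12 members in each library (y axis, CPM on a linear axis from 0; x axis, the uninjured, vehicle lesion and tamoxifen lesion groups). Points are single libraries, the open circle is tamoxifen library 452, and the bar beside each group gives its mean and SD (n = 4); vehicle and uninjured libraries do not overlap in any panel, Rab3d and Vamp8 lie higher and the others lower in vehicle lesions.

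Of 16 tested synaptotagmins 13 fell and 1 rose (median log2 -0.79). Syt1 (ENSMUSG00000035864), the calcium sensor of fast release in forebrain, read 252, 214, 224 and 250.5 CPM in uninjured cord, 102, 116.8, 92.3 and 131 in vehicle lesions and 169.9, 92.1, 84.6 and 175 in tamoxifen lesions. Its vehicle libraries were all below its uninjured ones, a fall by 1.09 (SE 0.21, adjusted p = 0.001), and its tamoxifen libraries split into a high and a low pair. Syt2, the fast sensor that predominates in the cord, read 920.0, 871, 928 and 868, then 474, 535, 410.3 and 496, then 600.2, 441, 446 and 486. It fell by 0.91 (SE 0.10, adjusted p = 2.1e-05). Syt10 (ENSMUSG00000063260), a calcium sensor for vesicles that carry growth factor, fell most of all members. Its libraries read 15.3, 11.9, 12.5 and 15.6 CPM, then 2.99, 3.95, 3.03 and 6.04, then 7.31, 4.85, 3.30 and 6.80. That was a fall by 1.77 (SE 0.26, adjusted p = 0.00014), on 28 to 77 counts per vehicle library. Syt16 read 22.8, 19.2, 20.6 and 25.5, then 8.87, 13.1, 7.44 and 10.3, then 15.2, 12.02, 9.97 and 19.9, and fell by 1.15 (SE 0.21).

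Syt7, a sensor of slow release, fell by 0.80 and Syt13 by 0.90, near the family median. Syt11, a synaptotagmin that does not bind calcium, was the highest of the family per length and did not pass (log2 -0.13, interval -0.24 to -0.01, adjusted p = 0.056), although each of its vehicle libraries lay below each uninjured one. Syt17 did not pass either (log2 -0.26, interval -0.65 to 0.13). Syt15 rose: it read 1.72, 1.89, 2.20 and 1.23 CPM, then 2.56, 2.59, 4.04 and 4.23, then 3.48, 3.08, 3.03 and 3.03. The rise was 0.94 (SE 0.23, adjusted p = 0.0038), from 14 to 25 counts per uninjured library to 21 to 54 per vehicle library.

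Neurexins and neuroligins fell as well, and the 5 described here had differences from -0.84 to -0.35. Nrxn2 fell by 0.65 and Nrxn3 by 0.84, from 263 ± 3.39 to 147 ± 9.80 CPM. Nlgn1, the neuroligin of excitatory synapses, read 44.4, 41.9, 46.8 and 45.7, then 29.7, 35.4, 31.8 and 31.0, then 38.5, 39.2, 39.2 and 41.1. Its 3 groups were apart, with a fall of 0.48 (SE 0.07). Nlgn2, the neuroligin of inhibitory synapses, fell by 0.37, and Nlgn3 by 0.35. The difference in fall between the role groups was not tested.

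Among the general trafficking members the direction varied. Vamp8 (ENSMUSG00000050732), which serves endosomes and granule release, read 15.0, 14.6, 14.0 and 9.83 CPM, then 38.6, 28.8, 36.9 and 27.9, then 26.6, 30.6, 27.4 and 22.1. Every lesion library stood above every uninjured one, and Vamp8 rose by 1.31 after vehicle (SE 0.15, adjusted p = 2.8e-05). Vamp3, of recycling endosomes, read 62.4, 58.5, 58.5 and 74.7, then 108, 97.8, 108 and 99.6, then 91.7, 109, 106 and 92.9. Vamp5, known from muscle, read 7.69, 8.48, 8.00 and 4.39, then 10.9, 11.1, 13.7 and 13.2, then 10.4, 12.1, 9.54 and 7.16. They rose by 0.70 (SE 0.09) and 0.78 (SE 0.20) after vehicle, while Vamp4 of the trans-Golgi network fell by 0.36. Stx11 (ENSMUSG00000039232), which cytotoxic lymphocytes need to release granules, had the largest rise of all members by 2.19 (SE 0.45, adjusted p = 0.0014), from 1 to 11 counts per uninjured library to 16 to 44 per vehicle library. Its libraries read 1.26, 0.343, 0.703 and 0.0878 CPM, then 2.35, 1.98, 2.66 and 3.45, then 1.80, 2.70, 3.30 and 2.85.

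Most other syntaxins moved little. Stx5a, of traffic between endoplasmic reticulum and Golgi, read 47.5, 46.8, 49.3 and 48.5, then 60.2, 56.5, 61.3 and 61.0, then 55.2, 45.7, 54.9 and 48.4, a rise by 0.32 after vehicle (SE 0.07). Stx2 rose by 0.69 in counts (SE 0.10) but did not pass on the authors' FPKM values (adjusted p = 0.213 with limma on log2(FPKM + 1)). Stx18, of the endoplasmic reticulum, fell by 0.26. In the reference annotation 19.1% of the Stx18 exon bases are shared with Nsg1, a neuronal gene on the opposite strand that fell by 0.64, and no source used here says whether counting used strand. The 8 others did not pass, with differences between -0.09 for Stx16 and 0.19 for Stx3. Among them Stx6 of the trans-Golgi network was at 69.2 ± 3.07 CPM before and 72.4 ± 1.97 after injury (log2 0.07, interval -0.05 to 0.18), and Stx17 of autophagosomes at 45.6 ± 4.25 and 46.6 ± 2.34 (log2 0.03, interval -0.14 to 0.21).

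**Figure D2:**
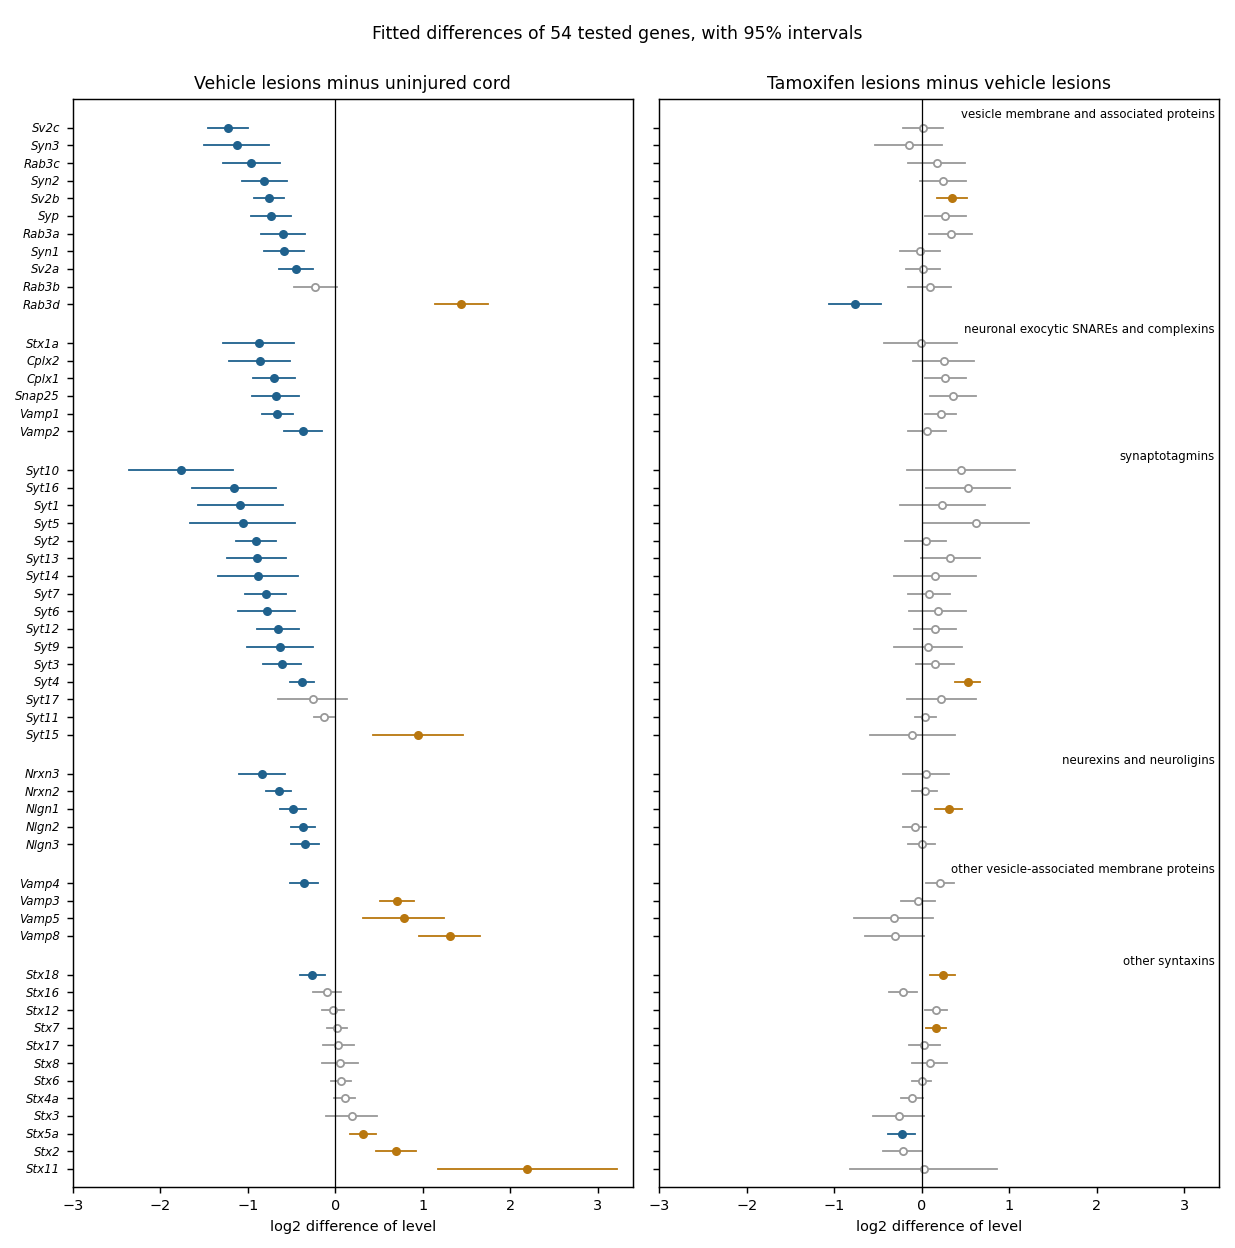
Fitted log2 differences (x axis) of 54 tested members, grouped by role, for vehicle lesions minus uninjured cord (left) and tamoxifen lesions minus vehicle lesions (right). Lines are 95% intervals, filled orange points are called higher, filled blue points called lower and open grey points did not pass; on the left 35 points are blue and 8 orange, on the right 2 are blue and 5 orange.

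Cell markers moved with these groups. Of 20 neuron markers 17 fell and 0 rose after vehicle (median log2 -0.47; 3 did not pass), with Rbfox3, a nuclear protein of neurons, at 202 ± 3.12 CPM before and 98.2 ± 14.7 after. All 15 macrophage and microglia markers rose (median 3.09), their summed level going from 338 to 428 CPM in uninjured cord to 2145 to 4059 in vehicle lesions. All 10 fibroblast markers rose (summed 252 to 815 CPM, then 3773 to 9911), and of 10 astrocyte markers 5 rose (summed 7263 to 8041, then 10959 to 13723). The part of these cells in the changes of the synaptic and trafficking members was not tested. Leaving out 1 library at a time kept every one of the 45 calls. Without the 5 libraries high in muscle transcripts, a choice made after seeing the data that leaves vehicle library 428 alone in its group, 1 member was called higher and 1 lower of 391 genes called in all, and each of the 45 kept its direction (members' median -0.47).

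Most genes that work with the members fell at the same site, where 24.1% of all genes tested fell and 26.7% rose. In the active zone scaffold, 14 of 16 tested genes fell and 0 rose after vehicle (median log2 -0.85). Erc2 fell by 0.97, Ppfia3 (a liprin) by 0.76 and Rph3a, a Rab3 effector, by 0.78. Of 23 SNARE chaperones and regulators 17 fell and 4 rose, among them Stxbp5l, a tomosyn, down by 1.31 and Cadps, a priming factor, by 0.73. Of 17 other vesicle membrane genes 10 fell and 3 rose. This list shares Slc32a1 and Slc17a6 with the neuron markers above. The vesicular transporter of inhibitory transmitters, Slc32a1, fell by 1.05, while Synpo (synaptopodin), an actin-binding protein that is no vesicle protein, rose by 1.17 and Syngr2, a synaptogyrin of non-neuronal cells, by 0.99. Endocytosis genes fell for 11 of 16 and rose for 2, with Synj1 (synaptojanin) down by 0.70. Of 36 other trans-synaptic adhesion genes 27 fell and 2 rose, including Clstn2, a calsyntenin, down by 0.78. Postsynaptic scaffold genes fell for 17 of 19 and rose for 1, with Dlgap3 down by 1.04 and Dlg2 by 0.93.

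**Figure D3:**
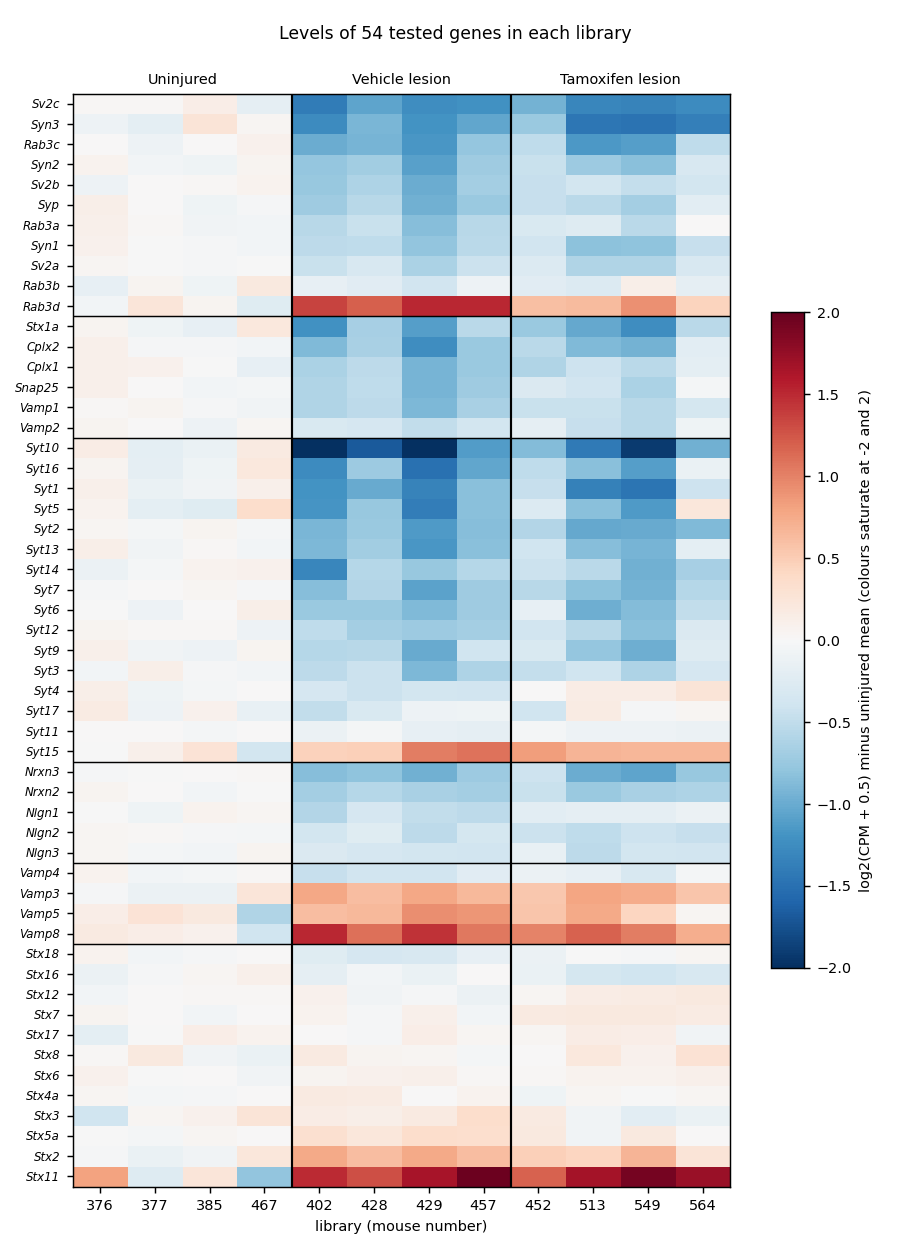
Levels of 54 tested members (rows, with 1 row each, in the same role groups as the plot of fitted differences) in each library (columns, by mouse number), as log2(CPM + 0.5) minus the uninjured mean, with colours saturating at -2 and 2. Lesion columns are blue for most members of the upper 4 groups and red for Rab3d, Syt15, Vamp3, Vamp5, Vamp8, Stx2 and Stx11.

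Mice of one group differed from each other across many synaptic members. Over the 40 tested members of the first 4 role groups, vehicle library 428 was the highest of its group for 24 and library 429 the lowest for 27. In the tamoxifen group library 564 was highest for 22 and 452 for 14, and library 549 was lowest for 24. The median log2 distance of a library from the other 3 of its group was -0.26 for 429 and 0.17 for 428, and -0.28 for 549, -0.15 for 513, 0.17 for 564 and 0.19 for 452. Among uninjured libraries the same distances ran from -0.03 to 0.06. This order was not computed over all genes tested, so it cannot be called particular to the synaptic members. Genes read in the same library are not independent of each other.

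Tamoxifen lesions were then set against vehicle lesions, the contrast of less with dense pericyte-derived scarring. Few members changed. Of 56 tested, 5 rose (Syt4, Sv2b, Nlgn1, Stx18 and Stx7), 2 fell (Rab3d and Stx5a) and 49 did not pass, which is 12.5%, near the 16.1% called among all genes. Rises were 7.79% and falls 8.33% of all genes. By sex-linked transcripts 3 of the 4 vehicle mice and 0 of the 4 tamoxifen mice were male. With a sex term in the fit 4 of the 7 calls were lost, those of Nlgn1 (adjusted p = 0.0566), Stx18 (0.0803), Stx5a (0.126) and Stx7 (0.248), while Syt4, Sv2b and Rab3d were still called (0.0117, 0.0112 and 0.0121), and 989 genes were called in all. The groups did not overlap for 6 members higher and 2 lower, beside 7.68% and 8.77% of all genes (16.4% together). The median over the 40 synaptic members was 0.15 and over all genes 0.00. The vehicle libraries are shared with the comparison above, so these 2 comparisons are not independent of each other.

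Syt4 (ENSMUSG00000024261), an early-response synaptotagmin that does not bind calcium as Syt1 does, read 133, 147, 146 and 159 CPM in tamoxifen lesions, 105, 98.5, 103 and 101 in vehicle lesions and 144, 125, 129 and 133 in uninjured cord. All 4 tamoxifen libraries stood above all 4 vehicle libraries, a rise by 0.52 (SE 0.06, adjusted p = 0.00074). After tamoxifen it overlapped with uninjured cord (log2 0.14, interval 0.00 to 0.28, adjusted p = 0.076), while after vehicle it had fallen by 0.38 (SE 0.06). Sv2b read 115, 122, 113 and 123 in tamoxifen lesions, 93.3, 103, 78.7 and 98.5 in vehicle lesions and 148, 159, 159.7 and 166 in uninjured cord. The 3 groups were apart, with a rise by 0.34 from vehicle (SE 0.08, adjusted p = 0.012). Nlgn1 also lay between, at the values given above, and rose by 0.31 (SE 0.07, adjusted p = 0.012).

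Rab3d fell by 0.76 (SE 0.13, adjusted p = 0.0042) and so stood between uninjured and vehicle libraries, but did not pass on FPKM values (adjusted p = 0.209 with limma on log2(FPKM + 1)). Stx7, of late endosomes, read 159, 160.1, 161 and 157 CPM in tamoxifen lesions, 146, 138, 150.2 and 134 in vehicle lesions and 145, 140.5, 135 and 141 in uninjured cord, a rise by 0.16 (SE 0.05, adjusted p = 0.042). Stx18 read 37.5, 40.8, 40.3 and 42.1, then 34.4, 32.5, 32.8 and 36.6 in vehicle lesions and 42.9, 39.2, 40.2 and 41.3 in uninjured cord, a rise by 0.24 (SE 0.06, adjusted p = 0.026). Stx5a fell by 0.23 (SE 0.07, adjusted p = 0.038). The calls of Stx18, Stx5a and Stx7 did not survive leaving out single libraries: vehicle 402, 428 or 429 or tamoxifen 513 or 564 for Stx18 (highest adjusted p = 0.0762), 7 of the 12 libraries for Stx5a (0.106) and 9 for Stx7 (0.115).

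The vesicle membrane, fusion and synaptotagmin genes named here missed the threshold after tamoxifen, with intervals on the higher side for several. Snap25 differed by 0.36 (interval 0.10 to 0.62, adjusted p = 0.053), Rab3a by 0.33 (0.08 to 0.58, adjusted p = 0.058), Cplx1 by 0.27 (0.04 to 0.50) and Syp by 0.27 (0.04 to 0.50). These intervals are not adjusted for the number of genes. Others centred on 0: Syn1 (log2 -0.02, interval -0.25 to 0.21), Sv2a (0.01, -0.18 to 0.21), Sv2c (0.01, -0.21 to 0.24), Stx1a (-0.01, -0.43 to 0.40) and Syt2 (0.04, -0.19 to 0.27). Of the neuron markers 5 of 20 rose after tamoxifen and 0 fell (median 0.19, lowest -0.69), beside 7.79% higher and 8.33% lower among all genes. Their summed level was 8112 ± 671 CPM in vehicle lesions and 7782 ± 636 in tamoxifen lesions, within the spread. Of the fibroblast markers 9 of 10 fell (median -2.89). The part of these cells in the member differences was not tested.

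The tamoxifen libraries of the 2 sample name series were set against the vehicle mean apart. Library 452 lay above every vehicle library for 32 of the 40 synaptic members and below for 1, whereas over all genes this single library lay above for 26.8% and below for 26.6%. The median log2 distance over the 40 from the vehicle mean was 0.27 in library 452, and in the later series 0.29 in library 564, 0.0033 in 513 and -0.075 in 549. Library 564 thus stood as high as 452, and the libraries of the later series differed among themselves. For the mean of 513, 549 and 564 the median was 0.07; over all genes it was 0.00 for library 452 and -0.01 for that mean. Syt4 and Sv2b were higher in both series, and Rab3d lower in both. With a series term in the fit, which rests the tamoxifen effect on library 452, 0 members passed of 57 genes called, with Syt4 at 0.38 (adjusted p = 0.0885), Sv2b at 0.30 (adjusted p = 0.299), Nlgn1 at 0.27 (0.302) and Rab3d at -0.82 (0.147). None of the 56 members had counts that stepped by more than 0.5 on the log2 scale against FPKM between the series, as 499 of 15254 genes compared did. Stx2 was below that limit, with counts 0.37 higher against FPKM in the later series and no overlap between the series.

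**Figure D4:**
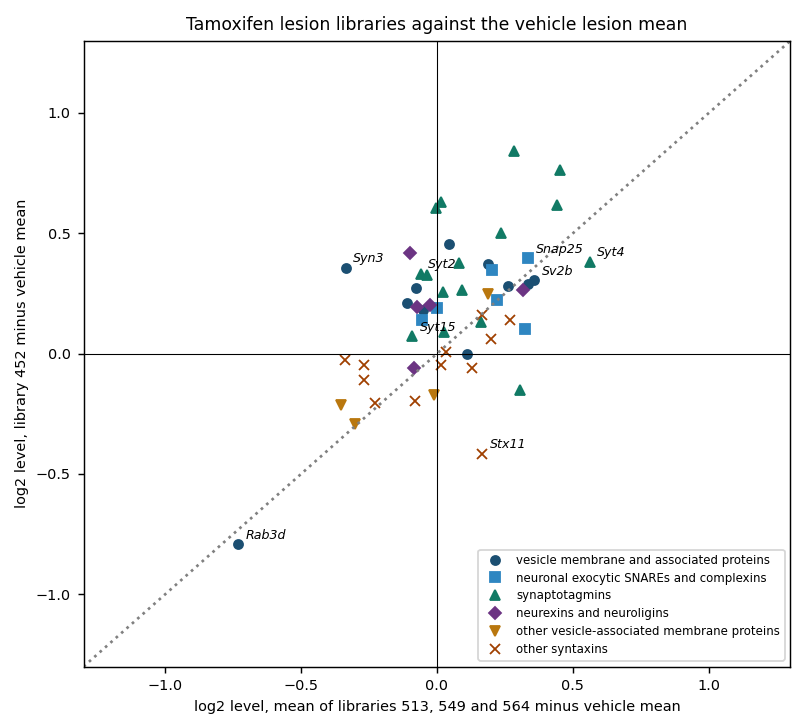
54 tested members in the tamoxifen lesions as log2(CPM + 0.5) minus the vehicle mean: library 452 (y axis) against the mean of libraries 513, 549 and 564 (x axis), with symbols by role group and the dotted line marking equal values. Most synaptic members lie above 0 on the y axis, with a median of 0.27, and scatter around 0 on the x axis, with a median of 0.07 for a mean of 3 unlike libraries, while Rab3d is low on both.

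In tamoxifen lesions against uninjured cord the members again lay mostly lower. Of 56 tested, 33 fell, 7 rose and 16 did not pass, with 48.9% of all genes called (22.7% lower, 26.3% higher). The groups did not overlap for 31 members lower and 8 higher, beside 19.7% and 21.4% of all genes (41.1% together). The 40 synaptic members had a median of -0.49, with 32 lower and 2 higher, including Stx1a, Vamp1, Cplx1, Cplx2 and Nrxn3 among those lower. Snap25 (log2 -0.32, adjusted p = 0.035) and Nlgn1 (-0.18, adjusted p = 0.040) were called lower too, but each lost its call without any of 6 single libraries (adjusted p up to 0.1002 and 0.108), and Snap25 overlapped between the groups. The largest falls were those of Syt10 by 1.32 (SE 0.25), Syn3 by 1.28 (SE 0.16), Sv2c by 1.21 (SE 0.10), Stx1a by 0.89 and Syt2 by 0.86. Stx11 rose by 2.22 (SE 0.45), Vamp8 by 1.00, Syt15 by 0.83, Rab3d by 0.68 and Vamp3 by 0.65. On FPKM values Rab3d was at 3.69 ± 2.10 in uninjured cord and 4.38 ± 1.57 in tamoxifen lesions, within its spread. Rab3a (log2 -0.27, adjusted p = 0.059), Syt5 (-0.44, adjusted p = 0.17), Syt4, Vamp4 (-0.16, adjusted p = 0.08) and Stx18 (-0.02, adjusted p = 0.77) did not pass here although they had fallen after vehicle. Stx16, of the trans-Golgi network, fell by 0.31 here. Stx2 was higher by 0.47 in counts but at -0.080 in FPKM, so its direction depends on the table, and its counts shifted against FPKM between the series of sample names as given above. The uninjured libraries are shared with the first comparison. Within the first series of sample names, where library 452 stands alone for tamoxifen, each of the 40 called members had the same direction. The members' median there was -0.30, beside -0.0011 over all genes. Without the libraries high in muscle transcripts each of the 40 also kept its direction, with a members' median of -0.41 beside 0.0087 over all genes.

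Balance within families was read as the log2 ratio of 2 paralogues' CPM in each library. A ratio is not per length, so only its difference between groups is used. After vehicle the ratio of Vamp1 to Vamp2 went from 2.09 ± 0.0850 (SD, n = 4) to 1.79 ± 0.0885, a difference of -0.30 with no overlap between groups (exact permutation test, two-sided, p = 0.0286, the smallest that 4 against 4 can give). Rab3c to Rab3a shifted by -0.36, Sv2b to Sv2a by -0.30 and Syn2 to Syn1 by -0.23, each without overlap. In tamoxifen lesions, Sv2b to Sv2a was 0.34 higher than after vehicle and Syn2 to Syn1 0.26 higher, again without overlap, while Rab3c to Rab3a differed by -0.54 from uninjured cord. Syt2 to Syt1 overlapped in all 3 comparisons. Of 21 tests of 7 ratios, 7 reached p = 0.0286 and 0 passed after Benjamini-Hochberg adjustment by the exact permutation test (lowest adjusted p = 0.0857). Since this p cannot be lower, 7 ratios at 0.0286 among 21 tests could not pass however far apart the groups lay. The adjusted result therefore cannot decide whether these ratios shifted.

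**Figure D5:**
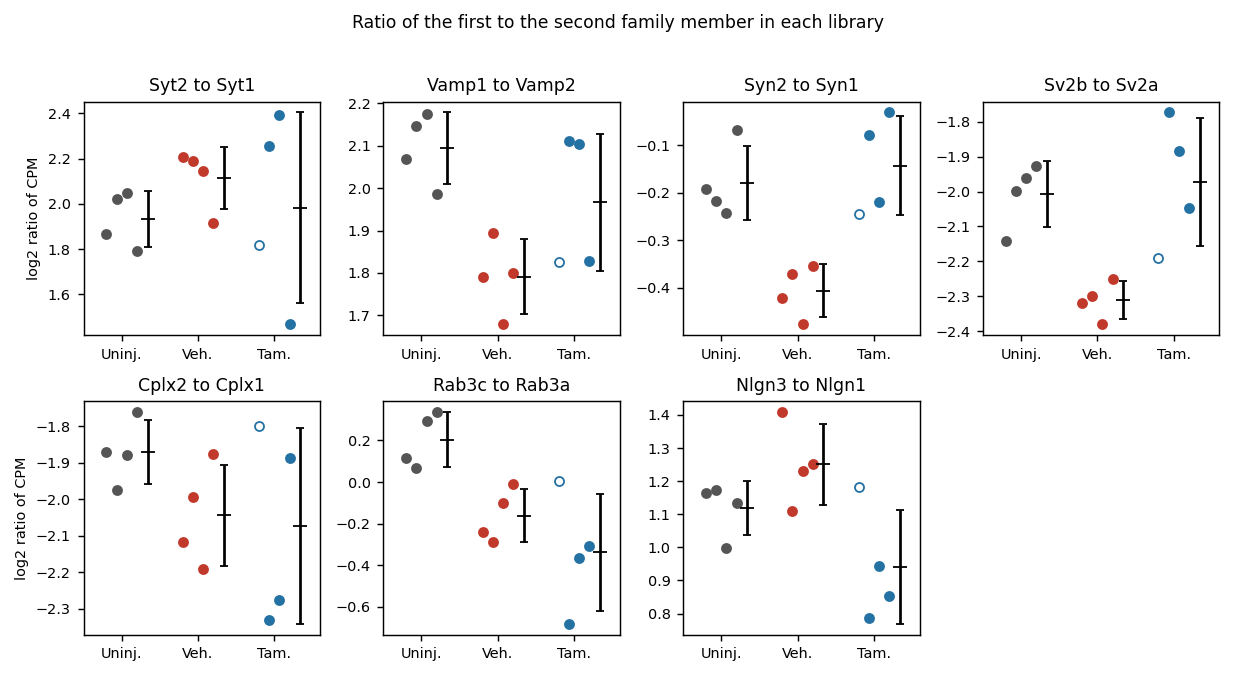
The log2 ratio of CPM of the first to the second paralogue (y axis) in each library of the uninjured, vehicle and tamoxifen groups (x axis), for 7 pairs. Points are libraries, open circles library 452, and bars mean and SD (n = 4); vehicle libraries lie wholly below uninjured ones for Vamp1 to Vamp2, Syn2 to Syn1, Sv2b to Sv2a and Rab3c to Rab3a.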

How the data were processed

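Total RNA from 12 spinal cord samples was sequenced. Per the submitters' processing notes, the build was mm9 and the tools were TopHat, Picard, HTSeq and Cufflinks. Their versions and roles, and whether strand was used, were not given in the sources used here. As deposited by the authors, the values are raw counts per Ensembl gene and, in a second table, FPKM values; whether reads with several matches were counted is not given. From the counts, edgeR 4.0.16 (R 4.3.3) kept 16473 genes by filterByExpr (minimum count 10, total 15), scaled libraries by TMM and fitted 3 group means (9 residual degrees of freedom). Contrasts were tested two-sided by quasi-likelihood, with Benjamini-Hochberg adjustment over all genes tested and a threshold of 0.05. CPM are TMM-normalised; standard errors are the log2 difference over the square root of F, and 95% intervals use 9 degrees of freedom. Depth ran from 7967970 to 12581324 counts per library, and reads carry no molecular identifiers. The limit given for 0 counts covers sampling error only, whereas the tests measure the spread between mice. FPKM were compared between genes and tested with limma 3.58.1 as an alternative.

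The members and lists were chosen with earlier results of these data known. All members were described; those given by library were 13 of 14 fixed genes and, in each comparison, up to 5 called rises and 5 called falls of largest size with a mean of at least 1 CPM, and of each related list up to 3 with the smallest p; Stx2 was added after its values were seen. Ratios of paralogues used log2(CPM + 0.5) and exact permutation tests. The values of 2 members and 1 ratio that needs them are not reported here, and figures leave them out; counts and medians over the members include both genes. Of 223 listed genes 220 were found. A gene was called stepped where its ratio of CPM to FPKM (log2) differed by over 0.5 between sample name series without overlap, given at least 200 counts. Alternatives were DESeq2 1.42.0 size factors and Wald test, no filter or 1 CPM in at least 8 libraries, limma on log2(FPKM + 1) and log2(FPKM + 0.1), series and sex terms, the first series alone, each library left out, and, added after seeing the data, leaving out 5 libraries whose muscle markers had a mean log2 CPM over 2. Gene overlaps came from the GENCODE annotation on GRCm38, a later build than the files', and were used for structure alone.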

Additional observations from a re-analysis of the deposited data

Results flagged for a closer look

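In 4 of 168 groups of 4 libraries (56 members in 3 groups), the most distant library lay apart from the other 3 by more than Dixon's limit, and chance flags about 1 in 20 such groups. Vehicle library 429 was low for Syn1, at 215.5 CPM with the others between 255.9 and 261.1. Uninjured library 385 was low for Syt11, at 1173 CPM beside 1204 to 1209.8. Tamoxifen library 452 was high for Syn3, at 18.9 CPM against 11.2 to 12.03 in libraries 513, 549 and 564, and for Syt15, at 3.48 CPM against 3.03 to 3.08. For Syn3 and Syt15 the library that stood apart is the one tamoxifen library of the first sample name series.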

How the results depend on the processing

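No paired analysis was possible because the replicate numbers are mouse numbers that no groups share. Of the 45 members called after vehicle, 45 kept their direction under each alternative. With each library left out, members higher were 8 and lower 37 to 38 after vehicle (7316 to 8926 genes in all), 7 to 9 and 29 to 36 in tamoxifen against uninjured (6718 to 8564), and 3 to 10 and 1 to 3 in tamoxifen against vehicle (1219 to 4209, the highest without library 452). Without the libraries high in muscle transcripts, members higher and lower were 1 and 1 of 391 genes called after vehicle, 0 and 0 of 0 genes in tamoxifen against vehicle, and 4 and 20 of 3666 in tamoxifen against uninjured; this leaves 1 vehicle library. For tamoxifen against vehicle, members higher and lower were 0 and 0 of 57 genes with the series term, 0 and 0 of 27 in the first series alone, and 2 and 1 of 989 with the sex term. There the DESeq2 Wald test gave 10 higher, no filter 1 lower, and limma called 1521 genes with log2(FPKM + 1) and 1442 with log2(FPKM + 0.1). For tamoxifen against uninjured, they were 2 and 10 of 1951 with the series term and 3 and 12 of 2077 in the first series alone. In that comparison Stx2 turned to -0.080 with log2(FPKM + 1) and -0.085 with log2(FPKM + 0.1), and its cause was not tested; its counts stood 0.37 higher against FPKM in the later series. In that comparison Nlgn1, Snap25, Syt16 and Vamp2 lost their calls without 6, 6, 3 and 1 of the libraries in turn. With the series term or the first series alone, the tamoxifen group rests on library 452, which is assumed to vary like the other groups. Of the ratios' values under alternatives 213 stayed within the spread between libraries and 11 did not.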
